A study of Mus musculus with 36 samples.

Results

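The genes described here mark the endothelium, the cell layer that lines blood vessels. They were followed in the kidneys of 2 mouse models in which Pkd1 or Pkd2, the genes mutated in autosomal dominant polycystic kidney disease, was deleted from the collecting duct. The set was chosen by name and holds 10 genes (Kdr, Flt1, Tie1, Tek, Cdh5, Esam, Pecam1, Emcn, Plvap and Ehd3) of the 20458 genes with a symbol in the table of read counts. Where a gene had several rows, 1 for each transcript, the row with the highest mean count was used. Of the 10 genes, 7 were measured and 3 were at or near 0 in every library.

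RNA sequencing covered whole kidney from 36 samples of C57BL/6 mice at postnatal day 1 (P1), 3 (P3) and 7 (P7), with 3 libraries in each of 12 groups. Knockout (KO) animals were Pkd1f/f:HoxB7-Cre or Pkd2f/f:HoxB7-Cre, and the controls, called WT here, were age-matched littermates with the floxed alleles and no Cre, Pkd1f/f or Pkd2f/f. HoxB7-Cre acts in the collecting duct epithelium, so endothelial cells are a compartment that the Cre line is not known to target. The labels number the replicates and say no more about them, so the p-values below measure the spread between these samples.

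Endothelial cells answer vascular endothelial growth factor (VEGF), which nephron epithelium and podocytes release, through the receptors Kdr and Flt1, and answer angiopoietins through Tek (Tie2) with its partner Tie1. They hold together through junction proteins such as Cdh5, Esam and Pecam1, carry the sialoglycoprotein Emcn at their surface, and in the kidney are fenestrated, with Plvap forming the diaphragms that span many of these pores. In the mouse kidney Ehd3, a protein of endocytic recycling, is known mainly from the glomerular endothelium, and after birth the glomerular and peritubular capillaries still grow.

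Total counts ran from 7179152 to 15850818 reads per library (median 13143336), and every pair of replicates differed by more than sampling noise. The count of the deleted gene was lower past the threshold in 1 comparison only. Pkd2 was lower in Pkd2 KO than in WT kidneys at P7, with a log2 difference of -0.29 ± 0.05 (SE, edgeR adjusted p = 0.0122). The Pkd1 transcript differed by 0.10 in Pkd1 KO kidneys at P7 (adjusted p = 0.595). The loxP sites flank only some exons of each gene, and reads were counted over the whole transcript. A deleted allele can therefore still give reads, and an unchanged count does not bear on the labels. The share of cells that lost the gene was not measured. Reads from Y-linked genes were present in 3 of 3 Pkd1 KO libraries at P7 (4185 to 4860 counts) and in 0 of 3 WT libraries (0 to 5 counts). In that comparison sex and genotype cannot be told apart. At P7 of the Pkd2 model they were present in 3 of 3 KO libraries and 2 of 3 WT libraries, and the comparison is given below also without the WT library that lacks them.

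Not every endothelial gene could be read from the table. Pecam1, with 4 rows, and Tek, with 3 rows, were listed at 0 in all 36 libraries, and Emcn, with 2 rows, had 3 reads in all. No value is given for these genes, and no fold change was computed. Genes with several rows were often at 0: among 15732 genes with 1 row, 15.3% were at 0 in every library, against 22.4% of 4726 genes with more than 1. Of the genes with several rows 34.3% had enough counts to be tested in at least 1 model, against 68.1% of those with 1 row. A gene listed at 0 here is therefore not shown to be absent from the kidney. The other 7 genes have 1 row each.

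The measured genes lie at 7 places on 5 chromosomes of the mouse genome (GRCm38). Kdr (NM_010612) is at chromosome 5, 75932827 to 75979072, and Flt1 (NM_010228) at chromosome 5, 147561604 to 147726438. Tie1 (NM_011587) is at chromosome 4, 118471191 to 118489849, and Cdh5 (NM_009868) at chromosome 8, 104101613 to 104144504. The remaining measured genes are Plvap (NM_032398, chromosome 8, 71497753 to 71511806), Esam (NM_027102, chromosome 9, 37528089 to 37538319) and Ehd3 (NM_020578, chromosome 17, 73804841 to 73832093). Tie1, Esam and Ehd3 overlap no other RefSeq gene, whereas Plvap overlaps the protein-coding genes Gtpbp3 and Gm46041, and Kdr, Flt1 and Cdh5 each overlap 1 long noncoding RNA. Reads were counted with the default options of HTSeq, which count by strand, but whether the library kit kept strand is not given in the sources used here, so for these 4 genes the reads of the gene and of its neighbour may not be told apart.

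Sequence upstream of the start is shown for Kdr, Flt1 and Ehd3. A RefSeq promoter window (GRCm38.p6) was at hand for only 4 of the measured genes. Shown are those of them that passed the KO test in at least 1 model and whose windows lay mostly outside the exons of coding transcripts. Kdr is from chr5:75978459-75978705 on the minus strand, Flt1 from chr5:147726012-147726261 on the minus strand, and Ehd3 from chr17:73804591-73804840 on the plus strand. Capitals mark GGAA or its complement TTCC, the core letters bound by ETS factors, a family that includes Ets1, Erg and Fli1 and is known for its part in endothelial transcription.
Kdr: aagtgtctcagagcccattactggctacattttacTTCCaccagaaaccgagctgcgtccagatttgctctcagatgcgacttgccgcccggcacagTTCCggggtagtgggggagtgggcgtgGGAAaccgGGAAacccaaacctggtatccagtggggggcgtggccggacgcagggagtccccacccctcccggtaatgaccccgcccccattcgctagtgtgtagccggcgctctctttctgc
Flt1: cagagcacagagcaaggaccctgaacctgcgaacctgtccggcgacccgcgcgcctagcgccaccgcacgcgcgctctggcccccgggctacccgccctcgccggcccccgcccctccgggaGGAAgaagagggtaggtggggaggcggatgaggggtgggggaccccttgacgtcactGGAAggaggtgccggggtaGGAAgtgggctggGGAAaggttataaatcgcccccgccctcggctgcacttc
Ehd3: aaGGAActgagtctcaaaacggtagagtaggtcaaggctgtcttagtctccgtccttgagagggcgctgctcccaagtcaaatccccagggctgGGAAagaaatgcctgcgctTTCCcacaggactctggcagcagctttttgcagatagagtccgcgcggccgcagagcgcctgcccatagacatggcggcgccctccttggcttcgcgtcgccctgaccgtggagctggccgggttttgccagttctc
The Kdr window of 247 bases held 4 such cores, the Flt1 window 4 and the Ehd3 window 3. Of 32536 promoter windows of 250 bases, 93.4% held at least 1 (median 3), so the cores do not set these promoters apart. Searched on both strands, the GC box GGGCGG was found 2 times in the Kdr window, 3 times in that of Flt1 and not in that of Ehd3, and occurred in 33% of all windows. TATAA was found 2 times in the Flt1 window, as matches on opposite strands that overlap at 1 place, and not in the others, and occurred in 22.7% of all windows. GC content was 61.5%, 70.4% and 60%. These letter counts are a description, and no binding was measured. The Kdr and Flt1 windows lie within the span that RefSeq gives these genes, and the Kdr and Ehd3 windows overlap an exon of a GENCODE retained-intron transcript.

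The 7 genes kept nearly the same order of abundance throughout. On a scale of counts per kilobase of transcript scaled to library size, which allows genes to be compared, Plvap was the highest, Cdh5 the next and Flt1 the lowest in each of the 12 groups. In WT kidneys at P7, Plvap stood at 199.8 ± 23.3 with floxed Pkd1 and at 198.3 ± 54.7 with floxed Pkd2 (SD, n = 3, here and in the next values), Cdh5 at 69.0 ± 8.32 and 72.2 ± 3.82, and Flt1 at 9.30 ± 2.94 and 10.6 ± 1.32. Tie1 (59.9 ± 2.35 and 61.1 ± 4.01) and Esam (56.6 ± 3.38 and 61.0 ± 9.46) came next after Cdh5. Ehd3 (29.5 ± 1.21 and 33.9 ± 0.783) and Kdr (24.4 ± 3.53 and 29.3 ± 1.52) stood between these and Flt1. Kdr was above Ehd3 in every group at P1, and Ehd3 above Kdr in every group at P7. Neighbours in this order overlapped between libraries for Cdh5 in 6 of 12 groups, for Tie1 in 7, for Kdr in 2 and for Ehd3 in 1. Across the 36 libraries the highest value on this scale was from 1.59 times (Tie1) to 2.45 times (Flt1) the lowest.

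**Figure D1:**
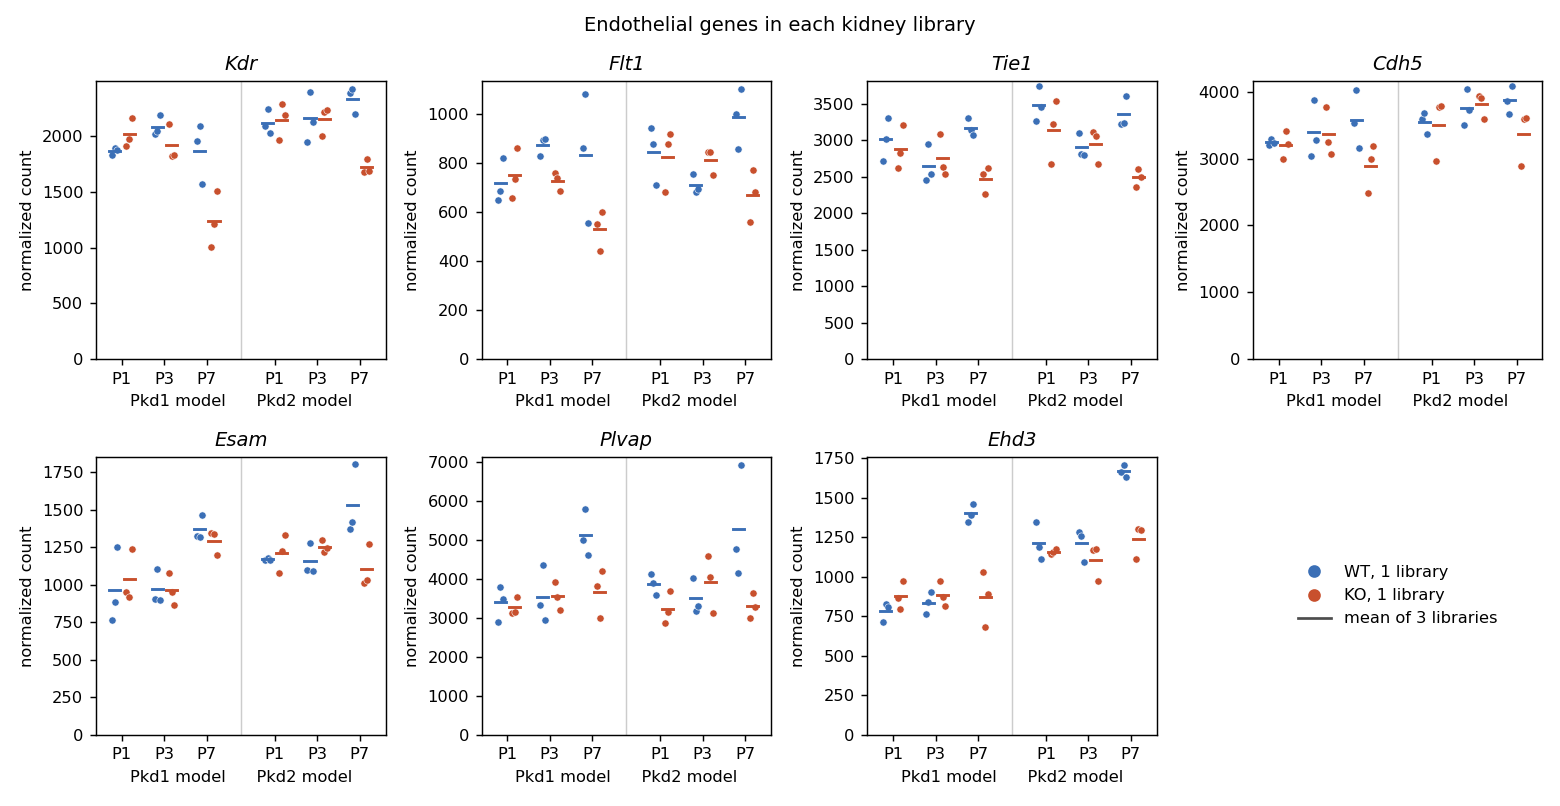
Normalized read counts (linear axis) of the 7 measured endothelial genes in each of the 36 libraries, by postnatal day, model and genotype, scaled within each model. At P7 all KO points lie below all WT points for 7 of 7 genes in the Pkd2 model and for 4 of 7 in the Pkd1 model, where for example the Esam values of KO (1201 to 1342) and WT libraries (1317 to 1462) overlapped.

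The question at each age was whether loss of Pkd1 or Pkd2 in the collecting duct went with a different level of endothelial transcripts in the whole kidney. At P7 all 7 measured genes had lower values in the KO kidneys of both models, with 1 passing the test in the Pkd1 model, where 13.7% of 12527 transcripts passed, and 6 in the Pkd2 model, where 13.9% of 12633 passed. In bulk tissue, fewer endothelial cells, less RNA per cell and a larger share of RNA from other cells cannot be told apart. Values below are read counts normalized to library size within a model, so that levels are not compared between models, and a gene was called changed at an adjusted p under 0.05 (edgeR quasi-likelihood test, Benjamini-Hochberg adjustment over all transcripts tested).

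Kdr, the main signalling receptor for VEGF, had 1956, 2087 and 1566 normalized counts in the 3 Pkd1 WT libraries at P7 and 1002, 1211 and 1504 in the KO libraries. Each KO library lay below each WT library, though the highest KO library came close to the lowest WT library. The difference was -0.59 ± 0.17 on the log2 scale and did not pass the test (adjusted p = 0.0549). The Pkd2 WT libraries held 2386, 2421 and 2196 normalized counts of Kdr and the KO libraries 1674, 1794 and 1687. These groups were far apart, and Kdr fell by 0.44 ± 0.06 on the log2 scale (adjusted p = 0.0040), to 73.6% of WT, against 66.3% in the Pkd1 model.

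Flt1, the VEGF receptor that also acts as a sink for the ligand, was the least abundant of the genes. Pkd1 WT libraries at P7 had 861, 1078 and 554 normalized counts and KO libraries 550, 440 and 601. The third WT library fell among the KO libraries, and the difference of -0.65 ± 0.24 did not pass the test (adjusted p = 0.0959). The Pkd2 model gave WT libraries of 1000, 856 and 1099 and KO libraries of 559, 768 and 681, with no overlap. Flt1 fell by 0.56 ± 0.13 in Pkd2 KO kidneys (adjusted p = 0.0320), to 68.0% of WT.

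Tie1, the orphan receptor that modulates angiopoietin signalling through Tek, had 3311, 3136 and 3070 normalized counts in Pkd1 WT libraries at P7 and 2540, 2262 and 2624 in KO libraries. The groups did not overlap, and the difference of -0.36 ± 0.10 did not pass (adjusted p = 0.0544). Tie1 in the Pkd2 model was 3231, 3233 and 3613 in WT and 2364, 2614 and 2503 in KO libraries, again without overlap. There it fell by 0.43 ± 0.07 (adjusted p = 0.0066), to 74.2% of WT.

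Among the junction genes, Cdh5, which encodes the VE-cadherin of adherens junctions, differed least in the Pkd2 model. Its normalized counts at P7 were 3534, 4023 and 3164 in Pkd1 WT and 2490, 2996 and 3194 in Pkd1 KO libraries. The highest KO library was above the lowest WT library, with a difference of -0.30 ± 0.14 (adjusted p = 0.156). Pkd2 WT libraries had 3864, 3671 and 4081 and KO libraries 2896, 3587 and 3603, which did not overlap but came close, at -0.20 ± 0.09 (adjusted p = 0.183). Cdh5 stood at 81.0% of WT for Pkd1 and at 86.8% for Pkd2.

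Esam, an adhesion molecule of endothelial tight junctions, had 1325, 1317 and 1462 normalized counts in Pkd1 WT libraries at P7 and 1342, 1340 and 1201 in KO libraries. The groups overlapped, and the difference was -0.08 ± 0.11 (adjusted p = 0.633). By contrast, Pkd2 WT libraries held 1369, 1415 and 1801 and KO libraries 1014, 1032 and 1269, with no overlap. Esam fell by 0.47 ± 0.13 in Pkd2 KO kidneys (adjusted p = 0.0468), to 72.3% of WT.

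Plvap, the diaphragm protein of fenestrae and caveolae, had the largest log2 difference of the 7 in the Pkd2 model. WT libraries of that model had 4784, 4155 and 6938 normalized counts at P7 and KO libraries 3010, 3639 and 3287. The groups did not overlap, and Plvap fell by 0.68 ± 0.18 (adjusted p = 0.0400), to 62.6% of WT. The third WT library stood well above the other two and is the one without Y-linked reads: without it the difference was -0.43 and still passed the test. Pkd1 WT libraries had 4998, 5803 and 4627 and KO libraries 3811, 2989 and 4219, apart from each other, with a difference of -0.49 ± 0.15 that did not pass (adjusted p = 0.0664).

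Ehd3, the gene of the glomerular endothelium, was the only one of the 7 to pass the test in both models at P7. Its normalized counts were 1349, 1390 and 1462 in Pkd1 WT and 1032, 684 and 890 in Pkd1 KO libraries, a clear gap, and it fell by 0.69 ± 0.15 (adjusted p = 0.0275), to 62.0% of WT. Its Pkd2 values were 1661, 1707 and 1631 in WT and 1111, 1302 and 1294 in KO libraries, again apart, and it fell by 0.43 ± 0.07 (adjusted p = 0.0096), to 74.1% of WT. The Pkd1 call was lost without WT library 1 (adjusted p = 0.093), without KO library 2 (0.0788) and without KO library 3 (0.0621).

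**Figure D2:**
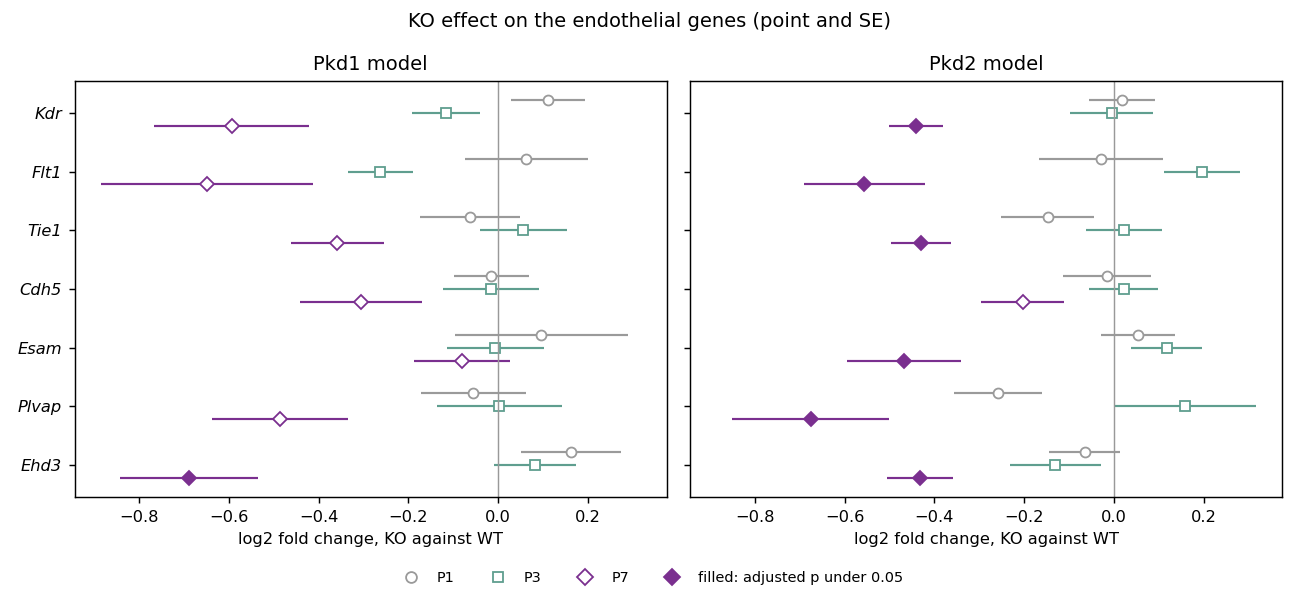
KO against WT difference (log2 scale) of each measured endothelial gene at P1, P3 and P7 in both models, with bars of 1 standard error and filled points for genes that passed the test. Points lie around 0 at P1 and P3, and at P7 all lie below 0, with the Pkd1 values from -0.69 (Ehd3) to -0.08 (Esam) and the Pkd2 values from -0.68 (Plvap) to -0.20 (Cdh5).

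At P7 the median difference of the 7 genes was -0.49 in the first model (Pkd1) and -0.44 in the second, while that of all transcripts was -0.0055 and 0.0015. Each KO library lay below each WT library for 4 of 7 genes in the Pkd1 model (Kdr, Tie1, Ehd3 and Plvap), against 19.7% of all transcripts, and for 7 of 7 in the Pkd2 model, against 15.9%. The summed normalized counts of the genes ran from 15906 to 18833 in Pkd1 WT and from 11921 to 14231 in Pkd1 KO libraries, and from 17458 to 21359 in Pkd2 WT and from 12628 to 14736 in Pkd2 KO libraries.

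The count in the Pkd1 model depended on the test and on single libraries. DESeq2 called 5 of 7, and so did edgeR with all 18 libraries of the model in one fit, with Kdr at an adjusted p of 0.0126 and 0.0030. WT library 3 had the lowest Kdr, Flt1, Tie1, Cdh5 and Plvap of its group, and without it 5 genes passed (Kdr, Flt1, Tie1, Plvap and Ehd3). A fit of the 18 Pkd1 libraries with the presence of Y-linked reads as a covariate cannot part sex from genotype, since only the WT group at P1 mixes both states and the covariate rests on its library 2, the shallowest of the series (7179152 reads). In that fit Kdr stood at -0.56, Flt1 at -0.75, Ehd3 at -0.57 (adjusted p = 0.309) and Plvap at -0.23, and none passed. Correcting each library for GC content and for length moved Kdr to -0.32, Flt1 to -0.32 and Plvap to -0.74. In the Pkd2 model, where the 5 libraries with Y-linked reads can be compared by themselves, Kdr (-0.48), Flt1 (-0.47, adjusted p = 0.0496), Tie1 (-0.37), Ehd3 (-0.45) and Plvap (-0.43) passed and Esam (-0.33, adjusted p = 0.0664) did not.

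Kdr, Tie1 and Ehd3 passed in the Pkd2 model whichever library was left out. Flt1 was lost without WT library 1, KO library 1 or KO library 3, Plvap without WT library 1 or any 1 of the KO libraries, and Esam without any 1 of the WT libraries, KO library 1 or KO library 2.

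At P1 and P3 no endothelial gene passed the test between KO and WT kidneys. In the Pkd1 model 0 of 7 passed at P1, where 0% of transcripts passed, and 0 of 7 at P3, where 0.00798% passed. For Pkd2 the share of transcripts that passed was 0% at P1 and 0% at P3, with 0 of 7 endothelial genes at either day. DESeq2 called 0 of the 7 at these days in both models. At an unadjusted p under 0.05 stood Flt1 in the Pkd1 model at P3 (-0.26, adjusted p = 0.191) and Plvap in the Pkd2 model at P1 (-0.26, adjusted p = 0.864), and no other.

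The Flt1 values at P3 were 827, 891 and 898 normalized counts in Pkd1 WT and 757, 739 and 684 in Pkd1 KO libraries, so that each KO library was below each WT library, as in 10.7% of all transcripts. Kdr at P1 in the Pkd1 model went the other way, with each KO library (1906 to 2161) above each WT library (1828 to 1893), as in 2.94% of all transcripts. Plvap at P1 was 4137, 3889 and 3602 in Pkd2 WT and 2871, 3160 and 3691 in Pkd2 KO libraries, with the third KO library inside the WT range. The 7 differences ran from -0.06 to 0.16 at P1 (median 0.06) and from -0.26 to 0.08 at P3 (median -0.01) in the Pkd1 model. Those of the Pkd2 model ran from -0.26 to 0.05 (median -0.03) and from -0.13 to 0.20 (median 0.02).

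The change from P1 to P7 was tested within each genotype. In Pkd1 WT kidneys 3 of 7 genes rose (Ehd3, Plvap and Esam), where 25.8% of transcripts passed in either direction, and in Pkd1 KO kidneys 2 of 7 fell (Kdr and Flt1), where 39.7% passed. In the Pkd2 model 2 of 7 rose in WT kidneys (Ehd3 and Esam), where 26.7% passed, and 2 of 7 fell in KO kidneys (Kdr and Tie1), where 22.9% passed. Counts of 2 of 7 lie near or under these shares of all transcripts. Cdh5 passed in none of these 4 comparisons. Y-linked reads were present in 0 of 3 KO libraries at P1 and in 3 of 3 at P7 in both models. Between these days sex and age therefore cannot be told apart in KO kidneys. In WT kidneys such reads were present in 2 of 3 libraries at P1 and 0 of 3 at P7 (Pkd1), and in 1 of 3 and 2 of 3 (Pkd2).

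Ehd3 rose by 0.84 on the log2 scale in Pkd1 WT kidneys (adjusted p = 0.0002), from 712, 829 and 811 normalized counts at P1 to the values above, and by 0.46 in Pkd2 WT kidneys (adjusted p = 0.0014), from 1343, 1185 and 1109. Its KO libraries at P1 had 863, 798 and 971 in the Pkd1 model and 1146, 1156 and 1176 in the Pkd2 model, within or near the WT range. Ehd3 in KO kidneys did not change past the threshold between the days in either model.

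Kdr took the other course. It had 1828, 1893 and 1870 normalized counts in Pkd1 WT and 1906, 1974 and 2161 in Pkd1 KO libraries at P1, all above the 1504 of the highest KO library at P7, and it fell by 0.70 in KO kidneys (adjusted p = 0.0005). Pkd2 libraries at P1 had for Kdr 2087, 2240 and 2027 in WT and 1961, 2286 and 2185 in KO, and it fell by 0.32 in KO kidneys (adjusted p = 0.0089). That call was lost with the correction for GC content and length (-0.26, adjusted p = 0.0815) and with the Y-linked covariate (-0.33, adjusted p = 0.0576). Among the other receptors 1 passed in each model: Flt1 fell by 0.50 in Pkd1 KO kidneys (adjusted p = 0.0389) and Tie1 fell by 0.34 in Pkd2 KO kidneys (adjusted p = 0.0171).

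Plvap rose by 0.60 in Pkd1 WT kidneys (adjusted p = 0.0089) and differed by 0.45 in Pkd2 WT kidneys (adjusted p = 0.0635). Esam rose by 0.50 in Pkd1 WT kidneys (adjusted p = 0.0268), from 767, 887 and 1249 normalized counts at P1, and by 0.39 in Pkd2 WT kidneys (adjusted p = 0.0160), from 1167, 1178 and 1161. With the correction for GC content and for length the change of Flt1 in Pkd1 KO kidneys was -0.08 (adjusted p = 0.748). Among these calls, Esam in Pkd1 WT was lost without any 1 of 4 libraries (WT libraries 1 and 2 at P1 and 1 and 3 at P7), Flt1 in Pkd1 KO without any 1 of 4 (KO libraries 2 and 3 at P1 and 1 and 2 at P7), Tie1 in Pkd2 KO without any 1 of 3 (KO libraries 2 and 3 at P1 and 1 at P7) and Esam in Pkd2 WT without any 1 of 2 (WT library 3 at P1 or at P7). Calls were gained for Esam in Pkd1 KO, which rose by 0.47 (adjusted p = 0.0322) without KO library 3 at P1, for Flt1 in Pkd1 WT (0.43) without WT library 3 at P7, for Flt1 in Pkd2 KO (-0.42) without KO library 1 at P1 and for Plvap in Pkd2 WT (0.60) without WT library 2 at P7. With the Y-linked covariate the calls of Plvap (0.43) and Esam (0.63) in Pkd1 WT, Kdr (-0.67) and Flt1 (-0.60) in Pkd1 KO and Tie1 (-0.38) in Pkd2 KO were lost, each with the same sign.

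**Figure D3:**
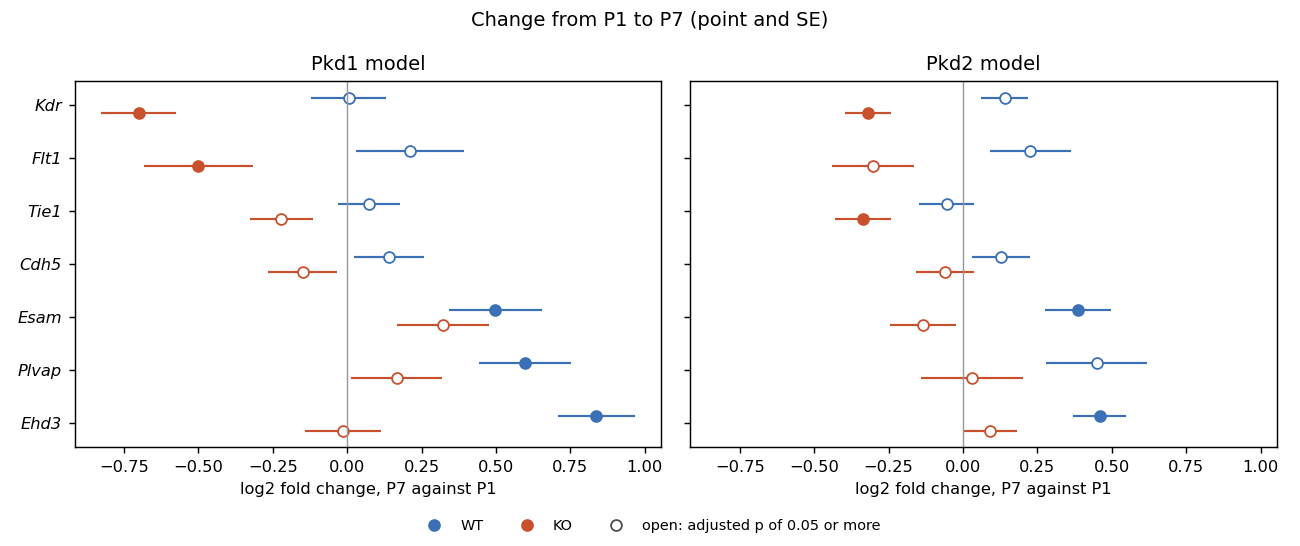
Change from P1 to P7 (log2 scale) of each measured endothelial gene in WT and KO kidneys of both models, with bars of 1 standard error and filled points for genes that passed the test. The KO value lies below the WT value for every gene in both models, and for Kdr the Pkd1 KO point is at -0.70.

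Whether the KO difference itself was different at P7 from P1 was tested by an interaction term. It was lower at P7 for all 7 genes in both models. In the Pkd1 model 2 of 7 passed, where 7.75% of transcripts passed: Kdr (-0.70 ± 0.18, adjusted p = 0.0256) and Ehd3 (-0.85 ± 0.18, adjusted p = 0.0122). Correcting for GC content and length put Kdr at -0.46 (adjusted p = 0.0657). The share of Y-linked libraries also differed between these groups, with 2 of 3 WT and 0 of 3 KO libraries at P1 against 0 of 3 and 3 of 3 at P7. With the covariate that rests on 1 library, the differences of Kdr (-0.65) and Ehd3 (-0.65) had the same sign and an adjusted p of 0.88. The Kdr call was lost without KO library 2 at P1, or WT library 1, WT library 2, KO library 1 or KO library 2 at P7, and Flt1 (-0.93, adjusted p = 0.00699) passed without WT library 3 at P7. In the Pkd2 model 0 of 7 passed with edgeR, where 1.3% of transcripts passed, 5 had an unadjusted p under 0.05, and DESeq2 called 2. Kdr stood at -0.46 there (adjusted p = 0.0542), and passed without KO library 1 at P1 (adjusted p = 0.0357). Y-linked reads in the Pkd2 model were present in 1 of 3 WT and 0 of 3 KO libraries at P1, against 2 of 3 and 3 of 3 at P7.

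The models were also compared with each other by an interaction term at P7, over the 12343 transcripts tested in both. 0 of 7 endothelial genes passed and 0% of all transcripts did, with edgeR, although 1 gene of the 7 had an unadjusted p under 0.05, and DESeq2 called 0 of the 7. That gene was Esam, for which the KO difference was 0.41 ± 0.17 higher in the Pkd1 model (adjusted p = 0.26). The differences between the models ran from -0.24 to 0.41 (median -0.07). Passing in 1 model and not in the other is therefore not shown to be a difference between the models.

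The share of single genes in the sum of the set was also described, without a test. At P7 the KO and WT libraries overlapped in this share for every gene in both models, except for Cdh5 in the Pkd2 model. Cdh5 made up 24.1% of the summed normalized counts in Pkd2 KO kidneys at P7 (22.9% to 25.2% over libraries) and 20.4% in WT kidneys (19.1% to 21.1%), without overlap. In the Pkd1 model it was 22.4% in KO (19.5% to 25.1%) and 20.5% in WT libraries (19.9% to 21.4%), which overlapped. The share of Kdr went from 14.3% at P1 to 9.52% at P7 in Pkd1 KO kidneys and from 13.4% to 10.7% in WT kidneys, and at P7 the KO (7.85% to 10.6%) and WT libraries (9.85% to 11.3%) overlapped. In the Pkd2 model it was 12.4% in both genotypes at P7. Pearson correlations between pairs of the genes over the 36 libraries, which share tissue, depth and age groups, ran from -0.09 (Kdr with Esam) to 0.74 (Kdr with Flt1).

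Beyond the named set, transcripts were ranked by how closely they followed the mean profile of the 7 genes over the 36 libraries, among 13014 transcripts. The 5 closest outside the marker lists were She (Pearson r = 0.889), Zcchc2 (0.803), Cldn11 (0.802), Gimap5 (0.795) and Gpr182 (0.769). The r is a description, and the libraries share age and genotype.

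The ligands and co-receptors of the VEGF receptors gave few calls. The list held 8 genes, of which 5 were tested, and Vegfa, the main ligand of Kdr and Flt1, has 9 rows and was at or near 0, as were Vegfb and Nrp2. By edgeR 0 of 5 passed in the Pkd1 model (3 at an unadjusted p under 0.05, and 1 by DESeq2) and 1 of 5 in the Pkd2 model. Vegfd, a lymphatic growth factor with 2 rows, had 163 to 218 counts in Pkd2 WT and 252 to 363 in Pkd2 KO libraries and rose by 0.74 (adjusted p = 0.0242). Its Pkd1 libraries did not overlap either and it differed by 1.10 (adjusted p = 0.086). The other tested members were at 0.10 and -0.16 for Vegfc, -0.29 and -0.26 for Flt4, the receptor of Vegfc and Vegfd, -0.35 and -0.19 for Nrp1, the VEGF co-receptor, and -2.0 and -0.32 for Pgf, which had at most 23 counts in any library at P7.

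On the angiopoietin side, 3 of 4 genes were tested, with 1 call in each model, both lower. Angpt2, the context-dependent ligand of Tek, had 656, 1060 and 510 normalized counts in Pkd1 WT libraries at P7 and 456, 180 and 270 in KO libraries. The groups did not overlap, and Angpt2 fell by 1.30 (adjusted p = 0.0499), against a difference of -0.74 in the Pkd2 model (adjusted p = 0.137). Ptprb, the endothelial phosphatase that acts on Tek, fell by 0.50 in Pkd2 KO kidneys (adjusted p = 0.0426) and differed by -0.61 in Pkd1 KO kidneys (adjusted p = 0.0727). Angpt4, with a mean of 31 counts over the 36 libraries, stood at -0.87 and -2.25 and passed in neither model, and Angpt1 was not measured.

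Other endothelial genes, listed with earlier results of these data known, were lower more often than not at P7. Of 58 genes in 8 lists, 45 were tested in the Pkd1 model at P7 and 31 had a negative difference (median -0.29), as did 50.5% of all transcripts, with 5 lower and 2 higher past the threshold. For Pkd2, 47 were tested and 36 had a negative difference (median -0.22), as did 49.7% of all transcripts, with 7 lower and 2 higher past the threshold. These 7 of 45 and 9 of 47 calls stand beside the 13.7% and 13.9% of all transcripts that passed. At P1 and P3 the edgeR test called 0 of them in either model, with 1 and 6 in the Pkd1 model and 3 and 4 in the Pkd2 model at an unadjusted p under 0.05.

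Among surface genes, Mmrn2, an endothelial matrix glycoprotein, fell by 0.82 in Pkd1 KO kidneys (adjusted p = 0.0419) and stood at -0.57 in Pkd2 KO kidneys (adjusted p = 0.0628). Icam2, an adhesion molecule, fell by 0.40 in Pkd2 KO kidneys (adjusted p = 0.0274) and Nos3, the endothelial nitric oxide synthase, fell by 0.50 (adjusted p = 0.0296), while in the Pkd1 model they differed by -0.40 (adjusted p = 0.102) and -0.20 (adjusted p = 0.212). Of this list 1 of 9 tested genes was called in the Pkd1 model and 2 of 10 in the Pkd2 model, each of them lower.

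Transcription factors of endothelium gave 2 lower calls in each model, of 8 and 9 tested. DESeq2 called 1 higher and 3 lower of them in the Pkd1 model, and 0 higher and 2 lower in the Pkd2 model. The genes named here are the 3 with the smallest p, so the list as a whole is not shown to be lower. Epas1, a hypoxia-inducible factor, passed in both, at -0.43 (adjusted p = 0.0470) and -0.31 (adjusted p = 0.0097). Ets1 fell by 2.15 in Pkd1 KO kidneys (adjusted p = 0.0177), from 45 to 107 counts in WT to 11 to 18 in KO libraries, and stood at -0.35 in the Pkd2 model (adjusted p = 0.256). The gene has 2 rows, so its count may rest on reads particular to 1 transcript. Sox7 fell by 0.40 in Pkd2 KO kidneys (adjusted p = 0.0342) and stood at -0.50 in the Pkd1 model (adjusted p = 0.0782).

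The glomerular endothelial list gave 1 lower call of 4 in the Pkd1 model and 2 of 4 in the Pkd2 model. Its summed normalized counts overlapped in the Pkd1 model, at 3396 to 4202 in KO and 3839 to 4143 in WT libraries. In the Pkd2 model they were 4219 to 4547 in KO and 4625 to 4939 in WT libraries. Tspan7, a tetraspanin, passed in both, at -0.48 (adjusted p = 0.0309) and -0.35 (adjusted p = 0.0371). Gata5, a transcription factor of glomerular endothelium, fell by 1.01 in Pkd2 KO kidneys (adjusted p = 0.0244), from 77 to 97 counts in WT to 37 to 49 in KO libraries. Of the arterial and Notch genes 0 of 9 passed in either model by edgeR or by DESeq2 (1 and 2 at an unadjusted p under 0.05). Their summed normalized counts overlapped between genotypes in both models. They were 10198 to 13317 in Pkd1 KO and 9563 to 12696 in Pkd1 WT libraries, and 10467 to 11985 in Pkd2 KO and 11384 to 11735 in Pkd2 WT libraries. Dll4, the arterial Notch ligand, stood at -0.35 (adjusted p = 0.0856) and -0.21 (adjusted p = 0.0875), with Notch4 at -0.18 and -0.22 and Gja4 at -0.29 and -0.17. Of the glomerular list Sost stood at -0.07 and -0.49.

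Beside Vegfd, the calls in the higher direction were Icam1 in both models and Lyve1 in the Pkd1 model. Icam1, an adhesion molecule induced on activated endothelium and also expressed by epithelium, rose by 0.63 in Pkd1 KO kidneys (adjusted p = 0.0400) and by 0.98 in Pkd2 KO kidneys (adjusted p = 0.0004). All KO libraries (815 to 938 and 886 to 927 normalized counts) lay above all WT libraries (438 to 643 and 431 to 472), as in 19.1% and 19.2% of all transcripts. Lyve1, a lymphatic endothelial gene that some macrophages also express, rose by 1.6 in Pkd1 KO kidneys (adjusted p = 0.0188), from 44 to 105 counts to 170 to 231. In the Pkd2 model it was at 1.88 and did not pass (adjusted p = 0.0650), with a single KO library at 372 counts. Other genes of veins and lymphatics were at -2.89 and -2.05 (Prox1) and -0.88 and -0.24 (Nr2f2). The activation genes Vcam1 and Sele were at -0.20 and -0.43 and at -1.22 and 1.06. By edgeR none of them passed the threshold. Sele had a mean of 7 counts over the 36 libraries, so its differences rest on few reads. DESeq2 called 1 higher and 2 lower of 3 genes of veins and lymphatics in the Pkd1 model, and 0 higher and 1 lower in the Pkd2 model. Of 4 activation genes it called 1 higher and 0 lower in the Pkd1 model, and 1 higher and 1 lower in the Pkd2 model.

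**Figure D4:**
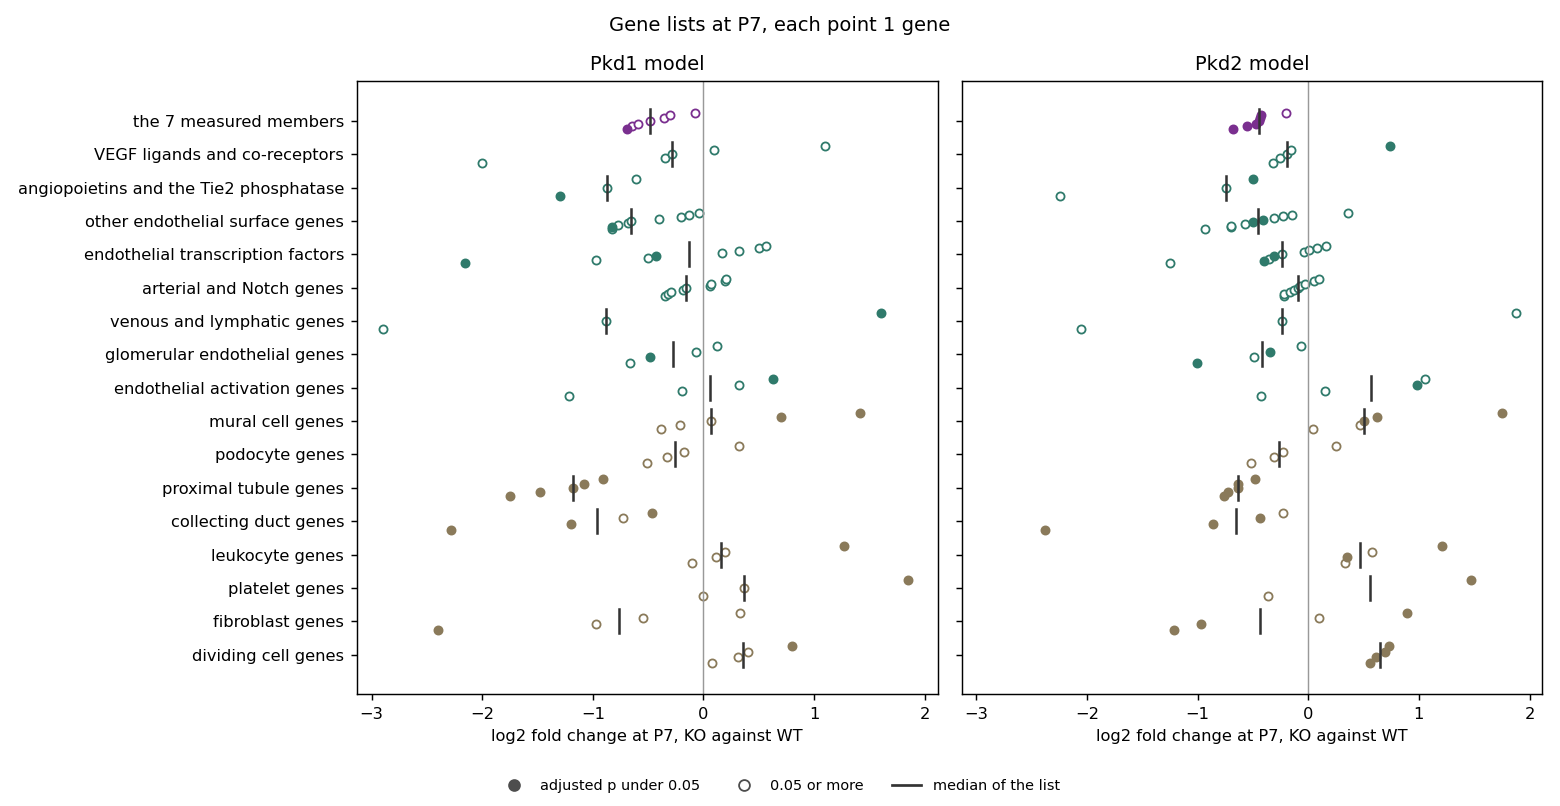
KO against WT differences at P7 (log2 scale) of the tested genes of each marker list in both models, 1 point for each gene filled where it passed the test, and a bar at the list's median. The 7 endothelial genes lie below 0 in both models (medians -0.49 and -0.44), the proximal tubule and collecting duct lists lie lower (medians from -1.18 to -0.64) and the dividing cell list lies above 0.

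Markers of other cell types moved at P7 too, where 13.7% (Pkd1) and 13.9% (Pkd2) of all transcripts passed. Proximal tubule genes fell in 5 of 5 in both models (medians -1.18 and -0.64), and collecting duct genes in 3 of 4 tested (medians -0.96 and -0.65), with Aqp2, the vasopressin-regulated water channel, at -2.28 and -2.38. Mural cell genes, which mark the smooth muscle and pericytes around vessels, gave 2 higher calls of 5 in the Pkd1 model and 3 of 5 in the Pkd2 model, with Acta2, smooth muscle actin, higher by 1.41 and 1.75. Their summed counts were 35033 to 42800 in Pkd1 KO against 18293 to 19206 in WT libraries, and 43916 to 47310 against 15925 to 18862 in the Pkd2 model. Acta2 weighs most in these sums. Over the 36 libraries its mean count was 14048, against 631 to 2900 for the other tested mural cell genes.

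Podocyte genes, which share the glomerulus with Ehd3-expressing cells, gave no call among 4 tested in either model by edgeR (unadjusted 1 and 2, DESeq2 1 and 1), with medians of -0.26 and -0.27. Their summed counts overlapped between genotypes, at 8351 to 10264 in Pkd1 KO and 7618 to 12944 in WT libraries, and at 8545 to 12140 in Pkd2 KO and 10249 to 12980 in WT libraries. Leukocyte genes gave 1 higher call of 4 and 2 of 4, led by C1qa, a macrophage complement gene (1.27 and 1.21). Pf4, a platelet gene, was higher by 1.85 and 1.47. Of the platelet list DESeq2 called 1 higher of 3 tested in the Pkd1 model and 1 higher of 2 tested in the Pkd2 model. Fibroblast genes gave 1 lower call of 4 in the Pkd1 model, and 1 higher and 2 lower of 4 in the Pkd2 model. Genes of dividing cells gave 1 higher call of 4 and 4 of 4, with Cdk1 at 0.80 and 0.73. What part these shifts in the markers of other cells have in the lower endothelial values was not tested.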

How the data were processed

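RNA-seq of whole mouse kidney (36 libraries, 12 groups, 3 libraries each, grouped by the labels) was analysed from the counts the authors deposited, which are raw reads for each RefSeq transcript, made on mm10. The submitters' processing notes name CASAVA 1.8.2, TopHat2 2.1.0 and HTSeq. Counting used HTSeq's default options, which count by strand, and whether the library kit kept strand is not given in the sources used here. Transcripts were paired with symbols through a RefSeq table (GRCm38.p6) for 28978 of 29996 rows. For a gene with several rows, the row with the highest mean count was used.

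Library totals of 7179152 to 15850818 counts set the precision. A transcript was tested in a model when 3 or more of its 18 libraries reached 10 counts, and counts were scaled by TMM within a model. KO was tested against WT at each day on 6 libraries, changes between days and the interaction of day and genotype on 18, and the interaction of model and genotype on the 12 libraries of P7 (edgeR 4.0.16, quasi-likelihood, R 4.3.3, Benjamini-Hochberg adjusted p under 0.05). Errors are standard errors from the F statistic. The edgeR and DESeq2 tests of KO against WT were tried on simulated counts, modelled on the 6 Pkd2 libraries of P7. Other steps were not tested in this way. Likeness is Pearson's r with the mean of the standardized log2 values of the measured genes. Tables and plots were made with Python 3.11.15, pandas 2.3.3 and matplotlib 3.10.9.

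The endothelial genes and the other lists were chosen with earlier results of these data known. Named are these genes, all VEGF and angiopoietin genes, the 3 genes of each other endothelial list with the smallest p at P7, at most 2 of each list of other cells, and the 5 transcripts closest in pattern.

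Alternatives were DESeq2 1.42.0, other scaling factors, other filters, a correction for GC content and length, a replicate block, one fit of 18 libraries, a Y-linked covariate, a fold change of at least 2 and each library left out in turn. Same-numbered libraries deviated together in the Pkd1 model at P1 (correlations of 0.39, 0.26 and 0.58) and in no other comparison in all pairs.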

Additional observations from a re-analysis of the deposited data

Results flagged for a closer look

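In 2 of the measured endothelial genes the KO difference at P7 was not that at P1 by the interaction test in the Pkd1 model: Kdr (-0.70, adjusted p = 0.0256) and Ehd3 (-0.85, adjusted p = 0.0122). For Kdr the value in the Pkd2 model was -0.46 (adjusted p = 0.0542), and for Ehd3 it was -0.37 (adjusted p = 0.174). In the Pkd1 model the same test passed for Angpt2 (-1.36, adjusted p = 0.0459) and Ets1 (-1.98, adjusted p = 0.0206), against -0.72 and -0.28 in the Pkd2 model, neither of which passed. Icam1 passed in the Pkd2 model, in the other direction (0.75, adjusted p = 0.0291), and stood at 0.58 in the Pkd1 model (adjusted p = 0.445). In the Pkd1 model the presence of Y-linked reads moved with these groups, at 2 of 3 WT and 0 of 3 KO libraries at P1 and 0 of 3 and 3 of 3 at P7. In the Pkd2 model it was at 1 of 3 WT and 0 of 3 KO libraries at P1 and 2 of 3 and 3 of 3 at P7. With the Y-linked covariate, Kdr (-0.65) and Ehd3 (-0.65) did not pass in the Pkd1 model. That covariate rests on 1 library there, so the fit cannot part sex from genotype. What part sex has in these differences is not shown.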

How the results depend on the processing

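Of 236 counts of calls recomputed under alternatives, 182 stayed within 1.5 times the reported count. All 224 KO differences of the 7 genes at P7 under alternatives were negative. The alternatives reuse the same libraries, and that of at least 2-fold keeps the reported differences, so the shared sign is not independent evidence. Many of the 182 counts that stayed within that limit were counts of 0 that stayed at 0. These were all 16 alternatives for each model at P1 and at P3 and all 18 between the models. For the Pkd2 interaction of day and genotype they were 15 of 19. The Pkd1 count at P7, reported as 1 of the 7 genes, was 5 with DESeq2 and with 18 libraries in one fit, 3 with at least 10 counts in every library, 3 with the GC and length correction, 0 with a change of at least 2-fold and 0 with the Y-linked covariate, and 0 to 5 with a library left out. The Pkd2 count at P7, reported as 6, was 0 with a change of at least 2-fold and 3 to 5 with a library left out. For the other endothelial genes, the Pkd1 count of 7 was 14 with DESeq2, 12 with 18 libraries, 3 with 2-fold, 0 with the covariate and 0 to 16 with a library left out, and the Pkd2 count of 9 was 14, with 1 for 2-fold, 5 with the covariate and 2 to 9 with a library left out. From P1 to P7, the counts were 1 in Pkd1 WT, 0 in Pkd1 KO and 0 in Pkd2 KO with the covariate and 1 in Pkd1 KO and 1 in Pkd2 KO with the GC and length correction. With a library left out they were 2 to 3 in Pkd1 WT, 1 to 2 in Pkd1 KO, 1 to 3 in Pkd2 WT and 1 to 3 in Pkd2 KO. The interaction of day and genotype gave 1 with the GC and length correction, 0 with the covariate and 1 to 3 with a library left out for Pkd1, and for Pkd2 2 with DESeq2, 1 with the stricter filter and 0 to 1 with a library left out. In the Pkd1 model the covariate rests on 1 library (WT library 2 at P1), so its lost calls say nothing of sex. The cause of these shifts was not tested. At P1 and P3 and between the models every alternative gave 0.

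Same-numbered libraries deviated together in all pairs only in the Pkd1 model at P1. Correlations ran from -0.21 to 0.17 in the other comparisons, which does not show that those libraries are unrelated. With the replicate block the counts at P7 were 1 (Pkd1) and 6 (Pkd2) of the 7 genes, and 2 and 8 of the other endothelial genes. From P1 to P7 the replicate block gave 3 in Pkd1 WT, 1 in Pkd1 KO, 2 in Pkd2 WT and 2 in Pkd2 KO, and for the interaction 2 (Pkd1) and 1 (Pkd2). It gave 0 at P1 and P3.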
